A study of Mus musculus with 32 samples.

Results

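5830415G21Rik is a mouse transcript that carries the name of a RIKEN cDNA clone and no name of a known protein. It was read by 1 probe of the 33012 noncontrol probes on each of 32 Applied Biosystems chemiluminescence arrays, which are single-colour arrays. It was chosen by its own levels in the 8 groups of genotype, cell type and treatment, so every array was used in choosing it. Its levels and differences are therefore given as a description, with no test.

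The arrays came from bone marrow of 8 C57Bl/6 mice, 4 of them Pparg+/- LysCre (mice 1 to 4) and 4 Pparg fl/- LysCre (mice 5 to 8), and asked how the response to a PPARγ ligand depends on Pparg in these cells. From each mouse, macrophages were grown with 20 ng/ml M-CSF and immature dendritic cells (iDCs) with 20 ng/ml GM-CSF. All cultures also received 20 ng/ml IL-4 and ran for 9 days, with either vehicle (DMSO and ethanol) or 1 μM rosiglitazone (RSG). Both genotypes share a null Pparg allele and the LysCre transgene, so the controls had 1 intact allele, and the other genotype had a floxed allele in its place that Cre can delete. LysCre expresses Cre from the lysozyme locus, which is active in myeloid cells, and how completely the floxed allele was lost in these cultures was not analysed here. The whole culture was measured, so fewer cells that express a transcript and less of it per cell cannot be told apart.

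PPARγ is a nuclear receptor that binds DNA together with its partner RXR and is activated by fatty acid derivatives and by drugs such as RSG. It is known for raising genes of lipid uptake, storage and oxidation in macrophages and dendritic cells, and transcripts that fall when it is activated are also well known. IL-4 drives macrophages to the alternatively activated state, and GM-CSF with IL-4 is the usual way to grow iDCs.

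Values below are log2 signals after quantile normalization over all 32 arrays, and a probe was called detected at a signal-to-noise ratio (S/N, the signal over its own standard deviation within the array) of at least 3. Per array, 13595 to 16683 probes were detected, and 16620 probes passed the filter for testing, which asked for detection on 3 or more of the 4 arrays in some group. A gene symbol was held here for 319 probes. No probe with a name was among them for 17 dendritic cell markers, 13 macrophage markers or 36 genes of PPARγ and lipid metabolism, Pparg included. The cell type labels and the level of Pparg were therefore not analysed here. The 4 scan days each held 8 arrays of 2 mice of 1 genotype, so scan day and genotype cannot be told apart beyond the spread between days of 1 genotype. Leaving out mouse 5 moved the number of probes called between genotypes in vehicle-treated iDCs from 471 to 2029. The differences and group means of 5830415G21Rik that include mouse 5 are given with and without that mouse below.

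5830415G21Rik was detected on 31 of the 32 arrays, with no quality flag on any of them. The exception was the RSG-treated macrophages of mouse 1, with an S/N of 2.69. Within each array its signal lay between the 69.9th and the 83.1st percentile of all probes, so it is a moderately bright probe everywhere. The highest percentiles, 80.7 to 83.1, were those of vehicle-treated Pparg+/- LysCre iDCs, and the percentiles of the same mice with RSG were 72.1 to 74.2.

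In iDCs of Pparg+/- LysCre mice, RSG lowered the level of 5830415G21Rik in each of 4 mice. The levels with vehicle were 12.83, 12.77, 12.46 and 12.88 in mice 1 to 4. With RSG they were 11.40, 11.10, 11.15 and 11.42. The groups did not overlap, and the lowest vehicle level lay above the highest RSG level. The change within a mouse was -1.43, -1.67, -1.31 and -1.45, with a mean of -1.46 ± 0.15 (SD, n = 4 mice), which is 2.76-fold lower. Among all 16620 tested probes, 220 (1.32%) had a lower mean change in this comparison, whose 5th percentile was -0.81.

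The deposited signals, before any scaling between arrays, were 6707, 6546, 7168 and 5763 with vehicle and 2431, 2555, 2252 and 2220 with RSG. The standard deviation of a signal within its array gave an error of the log2 change of 0.11 to 0.25 in these 4 mice. That error covers noise within an array only.

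**Figure D1:**
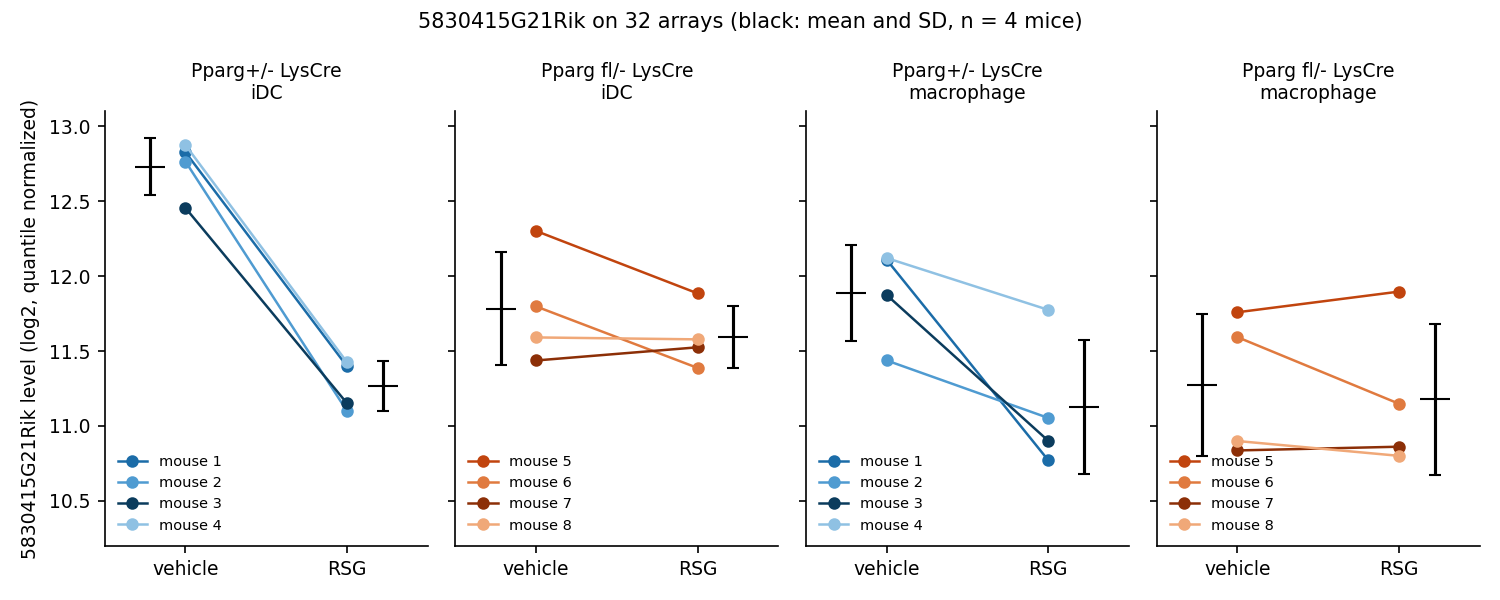
Level of 5830415G21Rik (log2, quantile normalized) with vehicle and with RSG in each genotype and cell type, with 1 line for each mouse and the mean and SD of 4 mice in black. The 4 lines of Pparg+/- LysCre iDCs fall from 12.46 to 12.88 with vehicle to 11.10 to 11.42 with RSG, and in the other 3 panels the 2 treatments overlap.

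In iDCs of Pparg fl/- LysCre mice the same treatment gave a smaller difference. The levels with vehicle were 12.30, 11.80, 11.44 and 11.59 in mice 5 to 8. With RSG they were 11.88, 11.39, 11.53 and 11.58. These 2 groups overlapped over most of their range. The change within a mouse was -0.42, -0.41, 0.09 and -0.01, a mean of -0.19 ± 0.26 (SD, n = 4 mice), and without mouse 5 it was -0.11 ± 0.26 (n = 3), as it was without mouse 6, at -0.11. The deposited signals of these iDCs were 8240, 3830, 3139 and 3323 with vehicle and 2205, 3407, 2415 and 5376 with RSG. In mouse 5 the unscaled signal thus fell by a larger factor than in any Pparg+/- LysCre mouse, and the median signal of all probes on its 2 arrays was 613 and 270. Mice 5 and 6, scanned on the same day, had the lower values, and mice 7 and 8, scanned on another day, were near 0. The mean changes by scan day were -1.55 and -1.38 for the 2 days with Pparg+/- LysCre mice and -0.41 and 0.04 for the 2 days with Pparg fl/- LysCre mice.

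The difference between the genotypes in this response was thus 1.28 on the log2 scale (Pparg fl/- LysCre minus Pparg+/- LysCre, ± 0.30 as the root of the summed variances of 4 and 4 mice). The changes of the 2 genotypes did not overlap, the nearest being -1.31 in mouse 3 and -0.42 in mouse 5. Without mouse 5 the difference was 1.35. With no scaling between arrays it was 1.03 ± 1.09, and the changes of the genotypes then overlapped. Of the tested probes, 279 (1.68%) had a larger difference of this sign.

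The genotypes differed without RSG, on the same vehicle arrays that enter the difference in response. In vehicle-treated iDCs the levels of Pparg fl/- LysCre mice (11.44 to 12.30) lay below those of Pparg+/- LysCre mice (12.46 to 12.88) with no overlap. The difference was -0.95 ± 0.42 (n = 4 and 4 mice), a 1.93-fold lower level, and 492 tested probes (2.96%) had a lower value. Without mouse 5, whose level was the highest of its group, it was -1.12. With no scaling between arrays the difference was -0.62 ± 0.66, and the groups overlapped, since the signal of mouse 5 was above that of each control. By scan day the mean levels were 12.80 and 12.67 in Pparg+/- LysCre mice and 12.05 and 11.51 in Pparg fl/- LysCre mice. In RSG-treated iDCs the order was the other way, with a difference of 0.33 ± 0.27 (0.23 without mouse 5), and the groups overlapped. The difference in response of 1.28 is this value minus the vehicle difference of -0.95, so most of it lies in the vehicle levels. After quantile normalization the vehicle levels of Pparg fl/- LysCre iDCs lay between the vehicle and RSG levels of the controls and overlapped neither. The gap to the RSG-treated controls was narrow, with 11.437 in mouse 7 and 11.425 in mouse 4. In the deposited ratios these groups overlapped, with 0.88 in vehicle-treated mouse 7 and 0.96 in RSG-treated mouse 1.

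**Figure D2:**
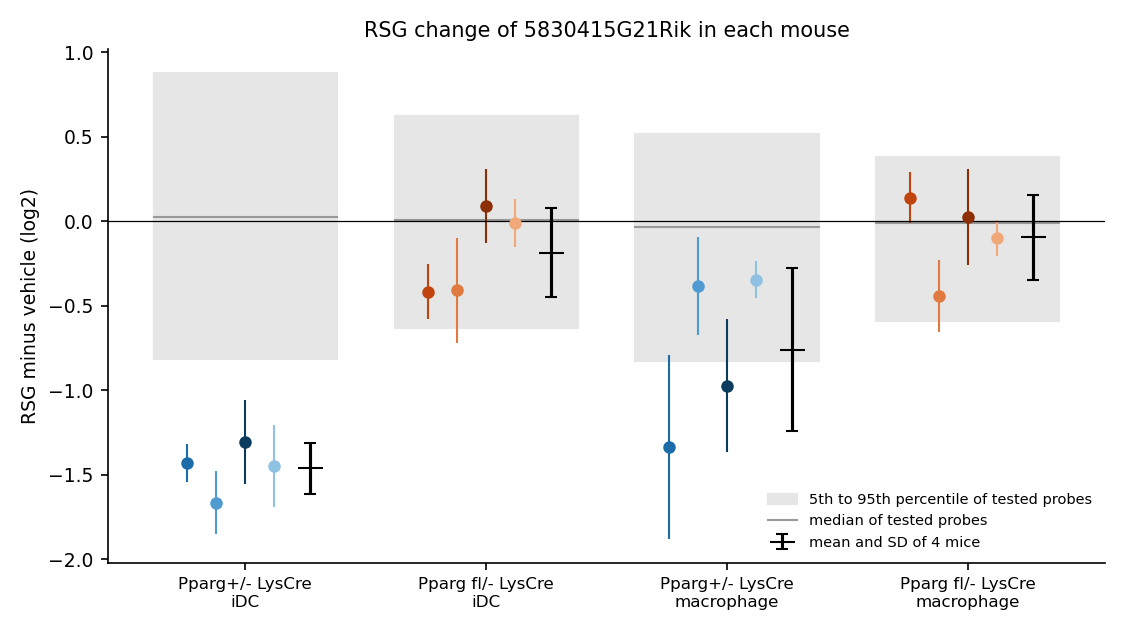
RSG minus vehicle (log2) for 5830415G21Rik in each mouse, with bars for the measurement error from the standard deviations within the arrays, the mean and SD of 4 mice in black, and the range from the 5th to the 95th percentile of the 16620 tested probes in grey. The 4 values of Pparg+/- LysCre iDCs (-1.67 to -1.31) lie below the grey range, and those of both Pparg fl/- LysCre settings lie inside it.

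Macrophages of Pparg+/- LysCre mice showed a lower level with RSG in each of 4 mice as well, but by unequal amounts. Their levels with vehicle were 12.11, 11.44, 11.87 and 12.12 in mice 1 to 4. With RSG they were 10.77, 11.05, 10.90 and 11.77. The groups overlapped, since the vehicle level of mouse 2 lay below the RSG level of mouse 4. The change was -1.34, -0.38, -0.97 and -0.35, with a mean of -0.76 ± 0.48 (SD, n = 4 mice), or 1.69-fold lower. The number of tested probes with a lower mean change was 950 (5.72%).

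These macrophage values rest on the least precise measurements of the set. The deposited signals with RSG were 1702, 2240, 1599 and 2608, with S/N of 2.69, 5.14, 3.84 and 15.35. The error of the log2 change was 0.54 in mouse 1, 0.29 in mouse 2, 0.39 in mouse 3 and 0.11 in mouse 4. The mice with the larger changes were thus those with the larger errors. Without mouse 1 the mean change was -0.57. The lower level with RSG was thus not confined to iDCs of these mice, although its size in macrophages is less certain.

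In macrophages of Pparg fl/- LysCre mice no common direction was seen. Their levels with vehicle were 11.76, 11.59, 10.84 and 10.90 in mice 5 to 8, and with RSG 11.90, 11.15, 10.86 and 10.80. In both treatments mice 5 and 6 lay above mice 7 and 8, along the 2 scan days. The change was 0.14, -0.44, 0.02 and -0.10, a mean of -0.10 ± 0.25 (SD, n = 4 mice), and 5292 tested probes (31.8%) had a lower value. Without mouse 5 it was -0.17, and without mouse 6 it was 0.02.

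The genotype difference in the macrophage response was 0.67 ± 0.54 (0.59 without mouse 5), and the changes of the 2 genotypes overlapped. In vehicle-treated macrophages the genotype difference was -0.61 ± 0.57, with overlapping groups, and without mouse 5 it was -0.78. In RSG-treated macrophages it was 0.05 ± 0.67, and its sign turned without mouse 1, 3 or 5, to -0.07, -0.02 and -0.19. The direction of the vehicle difference was that seen in iDCs, but here it was about as large as the spread between mice.

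With vehicle, the quantile-normalized level was higher in iDCs than in macrophages of the same mouse, in each of 8 mice. The difference (iDC minus macrophage) was 0.72, 1.33, 0.58 and 0.75 in mice 1 to 4, with a mean of 0.85 ± 0.33. In mice 5 to 8 it was 0.54, 0.21, 0.60 and 0.69, with a mean of 0.51 ± 0.21 (0.50 without mouse 5, and 0.33 with median scaling). In mouse 6 the order turned in the deposited ratios (1.01 in iDCs and 1.11 in macrophages) and in the unscaled signals (3830.1 and 4132.5). With RSG the difference in Pparg+/- LysCre mice was 0.14 ± 0.41 and positive in 3 of 4 mice, but -0.02 without mouse 1, 0.31 without mouse 4 and 0.30 with median scaling. In Pparg fl/- LysCre mice it was 0.42 ± 0.37 and positive in 3 of 4, or 0.56 without mouse 5. Differences this large between the cell types were common on the arrays, since 1942 tested probes (11.7%) had a larger value with vehicle in Pparg+/- LysCre mice. After quantile normalization the RSG change was more negative in iDCs than in macrophages of each Pparg+/- LysCre mouse. The mean difference was -0.70 ± 0.58, with -1.28 to -0.09 in single mice. In the deposited ratios, mouse 1 fell by a larger factor in macrophages (1.43 to 0.49) than in iDCs (2.15 to 0.96). With median scaling in place of quantile normalization the mean difference was -0.38, so its size and its sign in mouse 1 are not settled.

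**Figure D3:**
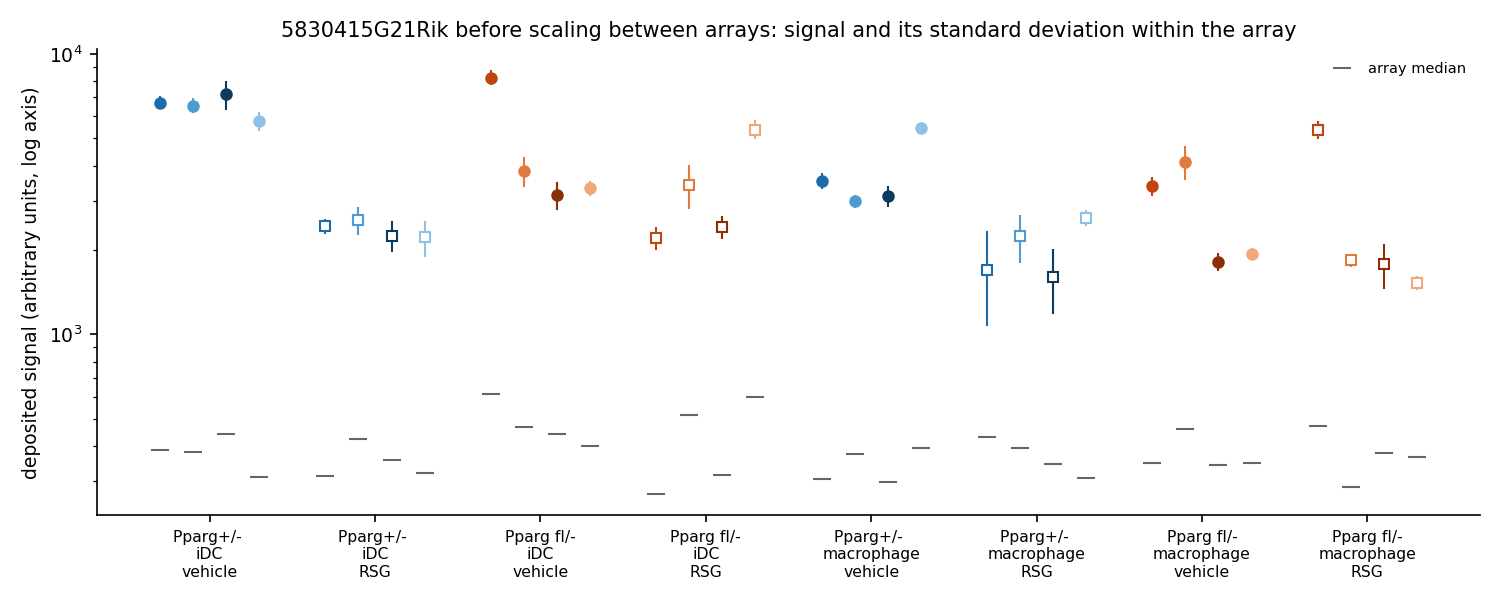
Deposited signal of 5830415G21Rik (arbitrary units, log axis) on each of the 32 arrays in order of mouse number within a group, filled for vehicle and open for RSG, with the standard deviation within the array as bars and the median signal of all probes of that array as a grey dash. The array medians run from 270 to 613, and the vehicle-treated iDCs of mouse 5 have both the highest array median and the highest signal, 8240.

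Ordered by their means, the 8 groups fell into 1 high group and 7 others. The highest mean was that of vehicle-treated Pparg+/- LysCre iDCs, 12.73 ± 0.19 (SD, n = 4, as for each group with all mice). It was followed by vehicle-treated Pparg+/- LysCre macrophages at 11.89 ± 0.32, and the gap of 0.85 compared with a pooled SD of 0.26. Vehicle-treated Pparg fl/- LysCre iDCs came next at 11.78 ± 0.38, then the same cells with RSG at 11.59 ± 0.21. The 4 lowest means were 11.27 ± 0.47 in vehicle-treated Pparg fl/- LysCre macrophages, 11.27 ± 0.17 in RSG-treated Pparg+/- LysCre iDCs, 11.18 ± 0.50 in RSG-treated Pparg fl/- LysCre macrophages and 11.12 ± 0.45 in RSG-treated Pparg+/- LysCre macrophages. From the second place down, each group overlapped its neighbour, and no gap to the next exceeded their pooled SD. Without mouse 5 the Pparg fl/- LysCre means (n = 3) were 11.61 ± 0.18 and 11.50 ± 0.10 in iDCs with vehicle and RSG, and 11.11 ± 0.42 and 10.94 ± 0.19 in macrophages. The first 4 places stayed as they were, but both macrophage groups then lay below the 11.12 of RSG-treated Pparg+/- LysCre macrophages, so the order of the 4 lowest means rested on that mouse. Neighbours still overlapped from the second place down, with gaps of 0.28 below the second place (pooled SD 0.27) and 0.23 below the fourth (pooled SD 0.14). On the linear scale the geometric mean of the normalized intensity was 6801 in vehicle-treated Pparg+/- LysCre iDCs and 2233 in RSG-treated Pparg+/- LysCre macrophages.

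In the balanced layout of the 3 factors, treatment took 28.2% of the sum of squares of the 32 levels. The spread among arrays within groups took 27.7%, which holds differences between mice, differences in their response and measurement error together. Genotype by treatment took 16.9%, cell type 16.5% and genotype 6.30%. The joint term of all 3 factors took 1.67%, the term of cell type by treatment 2.83% and that of genotype by cell type 0.0175%. Of the terms of the design, treatment, its dependence on genotype and cell type thus took the largest shares.

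As background for these comparisons, all 16620 tested probes were fitted with limma within each cell type, with calls made where the p adjusted by Benjamini and Hochberg was under 0.05 and the levels differed 1.5-fold or more. RSG in Pparg+/- LysCre iDCs called 999 probes (6.01%), 513 of them higher and 486 lower, and without mouse 2, 3 or 4 it called 588, 609 or 659. Of the 162 other genes with a symbol, 8 were called, 7 higher and 1 lower. The gene with the lower level was C130050O18Rik, also named after a RIKEN clone, with a change of -0.75 and an adjusted p of 0.0441 from limma. Its call was lost with median scaling, the deposited ratios or no detection filter, and without mouse 1, 2, 3 or 4. Its change ran from -0.82 to -0.62 over the settings. The higher ones were Lhx2 (5.32, a LIM homeobox transcription factor), Eraf (2.99, a chaperone of α-haemoglobin), Ear1 (2.81, an eosinophil-associated ribonuclease), Aldh3a1 (1.56, an aldehyde dehydrogenase), Lgals7 (1.10, a galectin), Tceal9 (1.05) and Acyp2 (0.99, an acylphosphatase). The split over all probes depended on the scaling, with 613 higher and 327 lower after median scaling and 615 higher and 327 lower from the deposited ratios.

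In Pparg fl/- LysCre iDCs RSG called 115 probes (0.692%), and Ear1 was the only other gene with a symbol, at 2.29 (adjusted p = 0.0043, limma). In Pparg+/- LysCre macrophages it called 199 (1.2%), 95 higher and 104 lower (46 and 143 after median scaling), of which 3 had a symbol: Sfrp4, a secreted Wnt-binding protein, at -3.18, Epdr1 at -1.34 and Tnfsf13, a TNF family ligand, at 0.62. In Pparg fl/- LysCre macrophages limma called 0 (0%), with 497 probes at an unadjusted p under 0.05. With the mouse as a block the last 2 counts were 494 and 5, and the count in Pparg fl/- LysCre iDCs was 202. Leaving out a single mouse gave 27 to 94 calls in Pparg fl/- LysCre iDCs and 50 to 395 in Pparg+/- LysCre macrophages.

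Genotype called 471 probes (2.83%) in vehicle-treated iDCs, 213 higher and 258 lower in Pparg fl/- LysCre mice (108 and 219 after median scaling), and 2 of these had a symbol, 1110032E23Rik at -1.88 and C130026I21Rik at 0.92, with adjusted p of 0.0456 and 0.0437 from limma. With scan day as a random block, added after seeing the data, the count was 402, and 1110032E23Rik no longer passed (adjusted p = 0.0511, limma). Both genes lost their call with median scaling, the deposited ratios or no detection filter, and without any mouse other than mouse 5. Their differences ran from -2.21 to -1.75 and from 0.83 to 1.08 over the settings. The number of called probes rested on single mice, since leaving out mouse 5 gave 2029 and leaving out any other mouse gave 36 to 76. A different RSG effect in the 2 genotypes was called for 73 probes (0.439%) in iDCs, with 34 positive and 39 negative differences of Pparg fl/- from Pparg+/- LysCre mice (5 and 23 after median scaling), and for none of the 162 other genes with a symbol, of which 17 had an unadjusted p under 0.05 in limma. Without mouse 5 that count over all probes was 210, and without any other mouse it was 1 to 15. Of 8 other genes named after RIKEN clones, 5 were tested. Those called were C130050O18Rik for RSG in Pparg+/- LysCre iDCs and the genotype pair just given, and 0 in the other 4 comparisons. The genes named in these counts were chosen after their values were seen.

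Of markers of other cells, 1 of 5 for eosinophils (Ear1) and 2 of 6 for erythroid cells (Hba-a1, an α-globin, and Eraf) had a named probe, and 0 of 8 for neutrophils, 0 of 5 for mast cells and basophils and 0 of 5 for lymphocytes. None of 21 genes of alternative activation had one. The Ear1 intensity ran from 18953 to 49262 in vehicle-treated Pparg+/- LysCre iDCs and from 183930 to 327630 with RSG, so it rose where 5830415G21Rik fell. In Pparg fl/- LysCre iDCs it ran from 23292 to 38276 with vehicle and from 109790 to 209020 with RSG, where 5830415G21Rik moved little. In macrophages it ran from 169330 to 207630 with vehicle and from 592460 to 755030 with RSG in Pparg+/- LysCre mice, and from 24702 to 150310 and from 34634 to 149970 in Pparg fl/- LysCre mice. The summed erythroid intensity was 837 to 1988 with vehicle and 954 to 2629 with RSG in Pparg+/- LysCre iDCs, and 436 to 2631 and 260 to 2134 in Pparg fl/- LysCre iDCs. In macrophages it was 366 to 447 with vehicle and 235 to 473 with RSG in Pparg+/- LysCre mice, and 466 to 6548 and 606 to 5746 in Pparg fl/- LysCre mice. Eraf was detected on 2 of 4 vehicle arrays and 0 of 4 RSG arrays of Pparg fl/- LysCre iDCs, and Hba-a1 on 4 and 3. Eraf was detected on 1 of 4 vehicle arrays and on 4 of 4 RSG arrays of Pparg+/- LysCre iDCs, and Hba-a1, on 3 of 4 and 2 of 4, had a difference of -0.83 (adjusted p = 0.612, limma). In macrophages Eraf was detected on 0 arrays, and Hba-a1 on 0 of 4 arrays of each Pparg+/- LysCre group and 3 of 4 of each Pparg fl/- LysCre group. The part of these cells in the result was not tested.

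The pattern of 5830415G21Rik over the 32 arrays was also compared with that of the 16619 other tested probes by Pearson's r, as a description, since all points share arrays and 1 normalization and the groups set much of the value. Over all of these probes r ran from -0.84 to 0.81, with the 5th percentile at -0.45 and the 95th at 0.46. The highest value was that of the probe with the identifier mCG144561, at 0.81, with 0.83 over the 16 iDC arrays and 0.76 over the 16 macrophage arrays. Its RSG changes were -0.85 in Pparg+/- LysCre iDCs, -0.39 in macrophages of the same genotype, -0.14 in Pparg fl/- LysCre iDCs and -0.20 in Pparg fl/- LysCre macrophages. The next was mCG9128.2, at 0.79, with RSG changes of -1.08, -0.55, -0.56 and -0.14 in the same order. The most opposite were mCG20642.1, at -0.84, and mCG19924.1, at -0.83 (-0.61 and -0.72 with median scaling). Their mean RSG changes in Pparg+/- LysCre iDCs were 0.69 ± 0.14 and 0.95 ± 0.17 (SD, n = 4 mice). In Pparg fl/- LysCre iDCs the changes were 0.13 ± 0.31 and 0.35 ± 0.19. In macrophages they were 0.21 ± 0.28 and 0.14 ± 0.14 in Pparg+/- LysCre mice, and 0.14 ± 0.17 and 0.17 ± 0.20 in Pparg fl/- LysCre mice.

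Among genes with a symbol likeness was lower. Trim59, of the tripartite motif family, came first at 0.59, which was place 170 among all tested probes, with 0.32 in iDCs and 0.62 in macrophages. Its RSG change was -0.40 ± 0.60 in Pparg+/- LysCre iDCs and -0.57 ± 0.29 in Pparg fl/- LysCre iDCs (SD, n = 4 mice each), and the former was -0.61 without mouse 1 and -0.13 without mouse 3. Stat5a, a transcription factor downstream of GM-CSF, had an r of 0.45. Ramp3, a partner of the calcitonin receptor-like receptor, had 0.44. Both were higher in iDCs than in macrophages, and within the 16 macrophage arrays their r was 0.19 and -0.02. After the group means were removed it turned to -0.19 and -0.24. The RSG change of Ramp3 was -0.92 ± 0.56 in Pparg+/- LysCre iDCs and -0.40 ± 0.40 in macrophages of that genotype. In Pparg fl/- LysCre mice it was -0.97 ± 0.81 in iDCs and -0.72 ± 0.29 in macrophages.

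Sowahc, an ankyrin repeat protein, had an r of 0.43 over all arrays, with 0.63 in macrophages and -0.26 in iDCs. C130050O18Rik had 0.39 and Med9, a Mediator subunit, 0.36, which turned to -0.13 and -0.01 after the group means were removed. Between the cell types the sign turned for Sowahc, and for C130050O18Rik as well, at 0.27 in iDCs and -0.17 in macrophages. The most opposite named genes were Rap2b, a Ras-like GTPase, and Tspyl2, of the TSPY-like family, both at -0.63, followed by Krtap3-3, a keratin-associated protein, at -0.61 and Rtl6, a Gag-like gene, at -0.60. Of these 4, Rap2b had the lowest r in iDCs, at -0.80 over 16 arrays. Its RSG change was 0.53 ± 0.12 in Pparg+/- LysCre iDCs and -0.05 ± 0.18 in Pparg fl/- LysCre iDCs (n = 4 mice each), and the latter was -0.12 without mouse 5. The other opposite named genes had positive mean changes in iDCs of both genotypes. In the same order these were 0.76 ± 0.17 and 0.64 ± 0.63 for Rtl6 and 0.25 ± 0.16 and 0.24 ± 0.11 for Tspyl2. For Krtap3-3 they were 0.24 ± 0.08 and 0.14 ± 0.23.

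**Figure D4:**
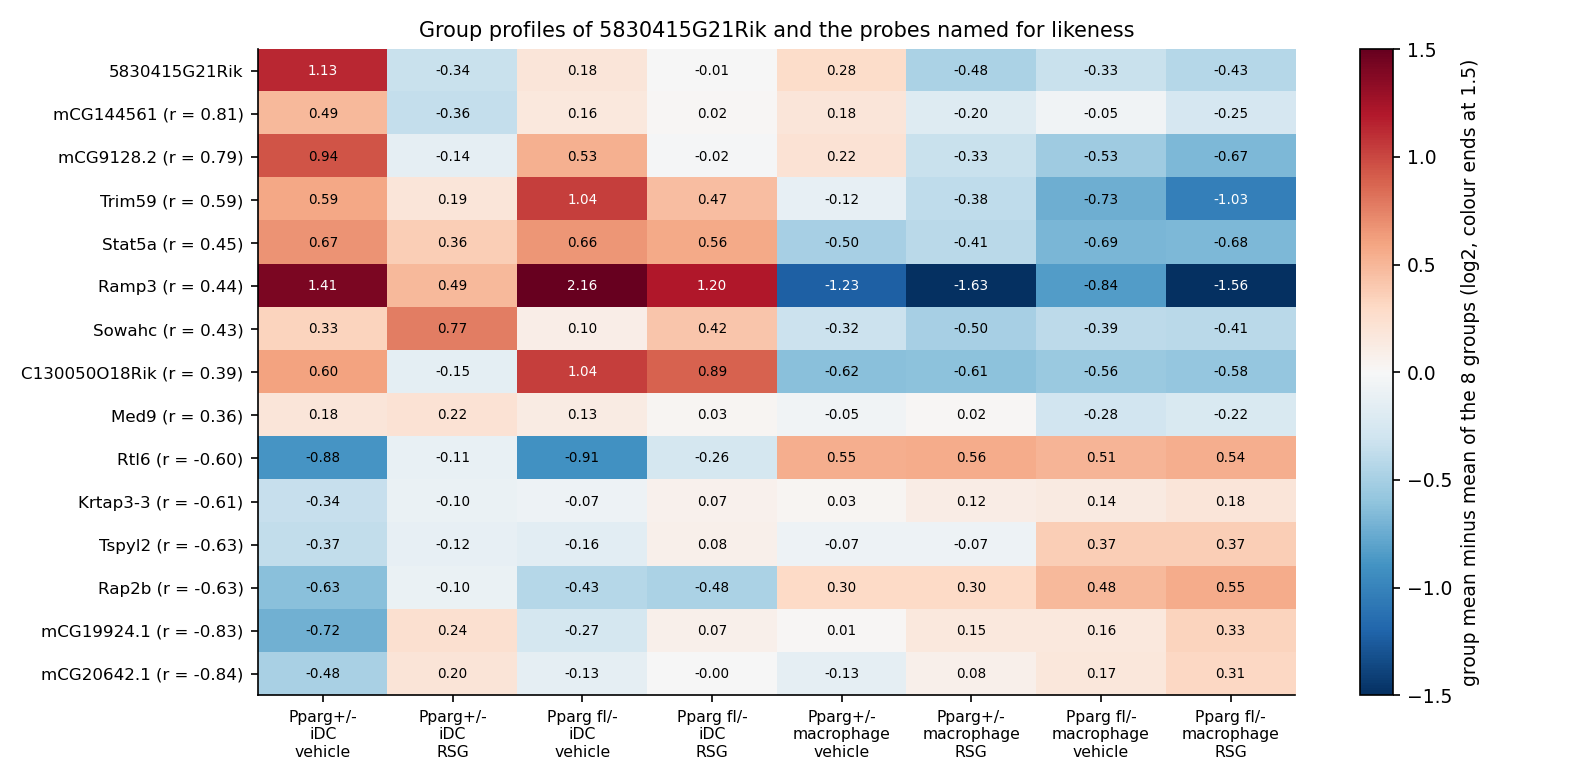
Mean of each of the 8 groups minus the mean over the groups (log2) for 5830415G21Rik and for the probes with the highest and lowest Pearson's r with it over 32 arrays, in order of r. The top row runs from 1.13 in vehicle-treated Pparg+/- LysCre iDCs to -0.48 in RSG-treated Pparg+/- LysCre macrophages. mCG144561, mCG9128.2, Trim59 and Ramp3 are also lower with RSG than with vehicle in both Pparg+/- LysCre cell types. Stat5a, Ramp3 and C130050O18Rik are higher in iDCs than in macrophages in each genotype and treatment. C130050O18Rik is also lower with RSG in Pparg+/- LysCre iDCs.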

How the data were processed

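For each of 32 arrays the authors deposited signal intensities already corrected for background, with their standard deviations, an S/N score, an assay-normalized signal score and a flag score. A further deposited table gave ratios, each signal over a number per array and over the probe's median. The scanner software, the statistic behind the assay normalization and the number per array are not given in the sources used here. Where the S/N was 1 or less (35.8% to 43.9% of probes of an array) a signal is a level of noise. The paper's methods describe other arrays.

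Signals were log2-transformed and quantile normalized (limma 3.58.1, R 4.3.3), which removes differences in overall brightness between arrays (array medians 270 to 613) and would also remove a real change in total RNA. Group differences of 5830415G21Rik were taken within the mouse where the mouse was shared. Means over all probes were fitted with lmFit and eBayes within the 16 arrays of a cell type, without a block, and the script was tested on simulated data. Of simulated probes shifted by 1 on the log2 scale, 39.5% (RSG by genotype in iDCs) to 60.5% (RSG in Pparg fl/- LysCre iDCs) were called. False calls numbered 4 to 13 in a comparison. A probe without a call may thus still differ. The labels give the mouse of each array, so vehicle and RSG samples are paired. Deviations from the group means correlated by a median of 0.284 for vehicle and RSG arrays from 1 mouse and cell type, against -0.02 between mice. Replicates are separate mice.

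The probe was named by matching its cDNA accession to the annotation in a supplementary table. Of the 319 symbols, 311 came from RefSeq (GRCm38.p6 table) and 8 from that supplement. No coordinate or sequence of 5830415G21Rik was used here. Genes named beside it are those of the marker and pathway lists with a named probe, and the 6 highest and 4 lowest by Pearson's r among genes with a symbol, plus 2 and 2 identifiers without one. The gene and the lists were chosen with earlier results of these data known. Alternatives were median scaling, the deposited ratios, the assay-normalized signal, an offset at the 10th percentile of signals (95.1), other detection filters, the mouse as a block or not, scan day as a random block, no scaling between arrays (these 2 added after seeing the data), and leaving out each mouse.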

Additional observations from a re-analysis of the deposited data

Results flagged for a closer look

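Of 18 sets of 4 mice examined for 5830415G21Rik, 1 had a mouse far from the others. For the difference in RSG change between iDCs and macrophages of Pparg fl/- LysCre mice, mouse 5 had -0.55 while the other 3 mice lay close together, and the gap took 0.919 of the whole range of the group. The threshold for 4 values is one that chance passes in about 1 in 20 sets. Without mouse 5 the mean was 0.06 ± 0.03 (SD, n = 3), against -0.09 ± 0.31 with it.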

How the results depend on the processing

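The differences of 5830415G21Rik moved by less than the spread between mice under each alternative run, and its RSG change in Pparg+/- LysCre iDCs ran from -1.52 to -1.36. Means near 0 changed sign in some settings, as the genotype difference in RSG-treated macrophages (-0.19 to 0.27), the cell type difference with RSG in Pparg+/- LysCre mice (-0.02 to 0.31) and the RSG change of Pparg fl/- LysCre macrophages (-0.22 to 0.02). Median scaling moved the median RSG change of all tested probes by -0.15 in Pparg+/- LysCre macrophages and by -0.12 in Pparg fl/- LysCre macrophages, and by less than 0.1 in iDCs, so part of the macrophage change of -0.98 it gave 5830415G21Rik in Pparg+/- LysCre mice is shared by all probes. Log2 signals with no scaling between arrays, an alternative added after seeing the data, gave -1.47 in Pparg+/- LysCre iDCs and -0.44 ± 1.08 in Pparg fl/- LysCre iDCs, where array brightness differed most, and -0.62 for the genotype difference in vehicle-treated iDCs. Taken as unpaired groups with no replicate block, the RSG change in Pparg+/- LysCre iDCs kept its mean of -1.46 with an SD of 0.25.

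Numbers of calls were less stable, and the cause was not tested. With median scaling or the deposited ratios, RSG called 69 probes in Pparg fl/- LysCre iDCs and a different RSG effect between genotypes was called for 28, with either of these settings. Without the detection filter, which tests more probes, these counts were 35 and 1, and those for RSG in Pparg+/- LysCre macrophages and genotype in vehicle-treated iDCs were 65 and 63. A replicate block for the mouse gave 202 calls of RSG in Pparg fl/- LysCre iDCs, 494 in Pparg+/- LysCre macrophages and 5 in Pparg fl/- LysCre macrophages, with 6 genes with a symbol and 1 RIKEN clone gene in Pparg+/- LysCre macrophages. Leaving out 1 mouse at a time gave 588 to 1266 probes for RSG in Pparg+/- LysCre iDCs, 27 to 94 in Pparg fl/- LysCre iDCs, 50 to 395 in Pparg+/- LysCre macrophages and 0 to 2 in Pparg fl/- LysCre macrophages, and 36 to 2029 for genotype and 1 to 210 for RSG by genotype. The highest of these came without mouse 5 in 4 of the 6 comparisons, the exceptions being RSG in Pparg fl/- LysCre iDCs (without mouse 1) and macrophages (without mouse 7).

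Among genes with a symbol, leaving out 1 mouse gave 3 to 12 for RSG in Pparg+/- LysCre iDCs, 0 to 1 in Pparg fl/- LysCre iDCs, 0 to 6 in Pparg+/- LysCre macrophages, 0 to 10 for genotype and 0 to 2 for RSG by genotype. Without the detection filter the first was 4, and those for Pparg+/- LysCre macrophages and for genotype were 0. For genotype, median scaling, the deposited ratios and scan day as a random block each gave 1. Of the RIKEN clone genes, scan day as a random block called 1 for genotype, and median scaling, the deposited ratios and no detection filter each gave 0 for RSG in Pparg+/- LysCre iDCs and 0 for genotype, and leaving out 1 mouse gave 0 to 2 for both and 0 to 1 for RSG in Pparg+/- LysCre macrophages. The changes of the genes named as called and of Hba-a1 kept their direction in each setting, with 122 values on the same side of the threshold and 73 that no longer passed it, and in Pparg+/- LysCre iDCs Tceal9, Lhx2 and Ear1 passed it each time. For the probes compared by likeness, 80 of the RSG changes under median scaling, the deposited ratios or without 1 mouse moved by less than the SD between mice and 4 by more, settings that were added after seeing the data. The sign turned in 2 of them, to 0.02 for mCG144561 in Pparg fl/- LysCre iDCs without mouse 5 and to 0.0012 for Rap2b there without mouse 7. In Pparg fl/- LysCre macrophages median scaling gave -0.31 for mCG144561 and -0.28 for mCG9128.2, which was -0.03 without mouse 8.

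After the group means were removed, r with 5830415G21Rik turned to -0.19 for Stat5a, -0.24 for Ramp3, -0.13 for C130050O18Rik and -0.01142 for Med9. It was 0.52 for mCG144561 (0.81 before), 0.35 for mCG9128.2 (0.79), 0.52 for Trim59 (0.59) and 0.67 for Sowahc (0.43). Of the opposite probes it was -0.51 for mCG20642.1 (-0.84 before), -0.69 for mCG19924.1 (-0.83), -0.47 for Rap2b (-0.63), -0.58 for Tspyl2 (-0.63), -0.31 for Krtap3-3 (-0.61) and -0.34 for Rtl6 (-0.60). With median scaling and the group means kept, r was weaker for each opposite probe. It was -0.61 for mCG20642.1, -0.72 for mCG19924.1, -0.44 for Rap2b, -0.45 for Tspyl2, -0.39 for Krtap3-3 and -0.49 for Rtl6. For mCG144561 and mCG9128.2 it was 0.85 and 0.80, and for the like genes with a symbol it ran from 0.395 to 0.57. The number of mice, 4 in a group, and an S/N below 6 on 5 of the 32 arrays limit the precision of the values for this probe.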
